A study of Mus musculus with 12 samples.

Results

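The genes described here are 10 upstream regulators and receptors of hepcidin, the liver hormone that limits the entry of iron into blood. They are the ligand gene Bmp2, the BMP receptor genes Bmpr1a, Acvr1 and Bmpr2, the co-receptor gene Hfe2 (hemojuvelin, also called Hjv), its binding partner Neo1, the protease gene Tmprss6, the sensor genes Hfe and Tfr2, and the signal carrier Smad4. They were chosen by name, and each was found by its Ensembl mouse identifier, so that 10 of the 27022 genes in the count table are described. RNA-Seq was carried out on the large liver lobe of 6 female SJL/J mice of 11 weeks. There were 3 mice on the control diet, AIN-93G with 50 ppm iron, and 3 mice on the iron-loaded diet, in which the mice received 2% carbonyl iron after reaching 6 weeks. The RNA of each mouse was prepared with both kits: the KAPA Stranded mRNA-Seq kit, which reads the whole transcript (Trad-KAPA), and the Lexogen QuantSeq kit, which reads from the 3′ end of the transcript (3’-LEXO), so that there were 12 libraries. The mice of a diet were housed together in a cage of 4, and therefore diet and cage cannot be told apart.

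Hepcidin is made by hepatocytes. BMP ligands from sinusoidal endothelial cells bind type I and type II receptors on the hepatocyte, hemojuvelin helps them to bind, and the activated receptors phosphorylate SMAD proteins, which enter the nucleus with the common partner SMAD4 and raise transcription of the hepcidin gene Hamp. HFE and transferrin receptor 2 report the transferrin iron in blood to this pathway, and matriptase-2, the protein of Tmprss6, cuts hemojuvelin from the membrane and so holds hepcidin down. Loss of HFE, TFR2 or hemojuvelin leads to iron overload, and loss of TMPRSS6 leads to iron deficiency anemia that does not respond to oral iron.

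The libraries held 10724672 to 16553616 counts. Counts of the 10 genes ranged from 209 to 9926 per Trad-KAPA library and from 127 to 4610 per 3’-LEXO library, so that counting alone gave a coefficient of variation of at most 6.92% and 8.87%. Replicates differed by more than this error in some groups and by less in others. Their coefficient of variation was 23.2% for Hfe2 in Trad-KAPA on the control diet. For Neo1 in 3’-LEXO on the iron-loaded diet it was 1.73%, where counting alone gave up to 5.91%. Levels are given as counts scaled to a library total of 1000000 (CPM). Iron-loaded mouse 1 stood apart from its group in both kits: its log2 values deviated from the group mean by 0.309 (Trad-KAPA) and 0.333 (3’-LEXO; root mean square over 10326 genes), against 0.166 to 0.228 in the other 10 libraries. Defining markers of hepatocytes were present in all libraries, and no marker of hepatocytes, sinusoidal endothelial cells, Kupffer cells or stellate cells was at 0 throughout a kit. In bulk liver RNA, fewer cells of a type and less RNA per cell cannot be told apart.

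The first question was whether the level of each gene differed between the diets within a kit. It was tested with the quasi-likelihood test of edgeR across all genes, with Benjamini-Hochberg adjustment and TMM normalization, and a gene is called where its adjusted p is under 0.05. In Trad-KAPA, Bmp2 and Bmpr2 were called higher on the iron-loaded diet and 0 of the 10 were called lower by edgeR, where 17.1% of 13151 genes were called (8.77% higher and 8.37% lower). At an unadjusted p under 0.05, 2 of the 10 were higher and 2 lower, beside 34.3% of all genes in either direction, and DESeq2 called 2 higher and 1 lower (16.8% of 14503 genes). In 3’-LEXO, Neo1 was called lower and 0 were called higher by edgeR, where 6.1% of 13301 genes were called (3.17% higher and 2.92% lower). At an unadjusted p under 0.05, 1 was higher and 2 lower, beside 25.0% of all genes, and DESeq2 called 0 higher and 2 lower (9.43% of 13923 genes). With edgeR, 0 of the 10 were called in both kits, beside 5.23% of the 12229 genes tested in both. The median log2 fold change of the 10 genes was -0.03 for Trad-KAPA and -0.23 for 3’-LEXO, beside 0.02 and 0.01 over all genes tested. The CPM ranges of the diets did not overlap for 8 of the 10 genes in Trad-KAPA (5 higher and 3 lower on iron), beside 41.2% of all genes (24.7% higher and 16.6% lower). They did not overlap for 6 of the 10 in 3’-LEXO (2 higher and 4 lower), beside 31.3% (18.5% and 12.8%). The kits share the RNA of the same mice, and the fold change had the same sign in both for 9 of the 10 (all but Bmpr1a), beside 80.9% of the 12229 genes. After adjustment, the test did not separate most of these differences from the spread between 3 mice.

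**Figure D1:**
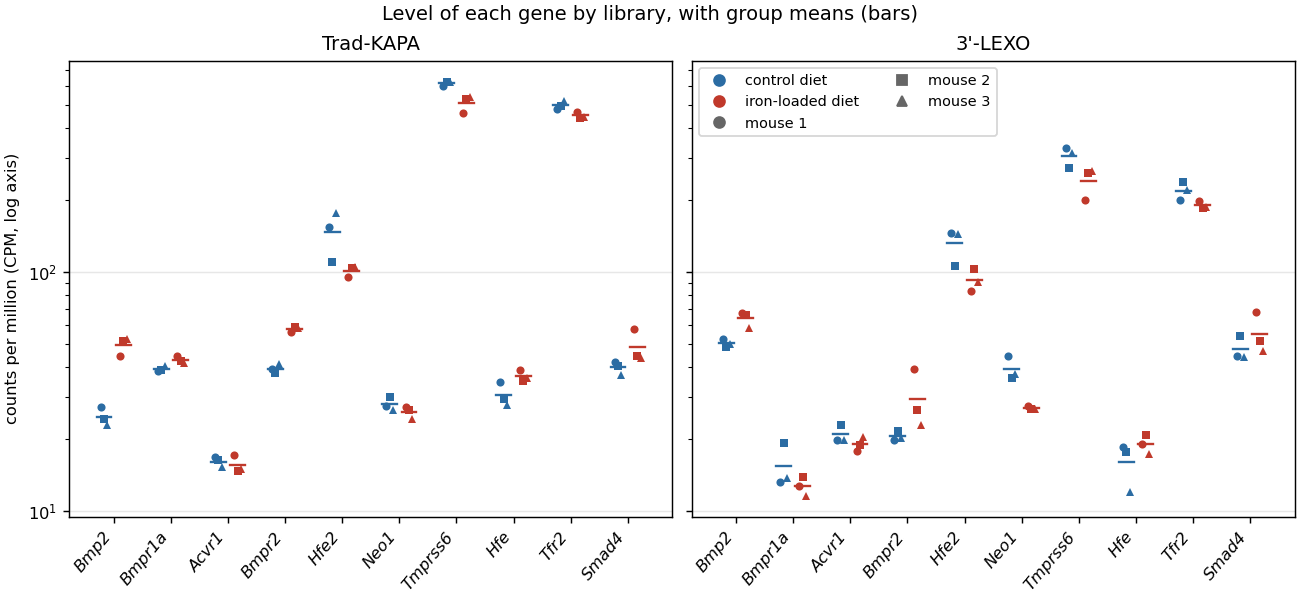
Level of each gene (CPM, log axis) in each library, in Trad-KAPA on the left and 3’-LEXO on the right; blue points are control mice, red points iron-loaded mice, the symbol shape gives the mouse number and bars are group means. Bmp2 and Bmpr2 lie higher on the iron-loaded diet in both panels, Hfe2, Tmprss6 and Tfr2 lie lower in both, and the groups of Neo1 are apart in 3’-LEXO only.

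The ligand gene Bmp2 (ENSMUSG00000027358, GRCm38 chr2:133552159-133562885, plus strand) encodes a BMP that liver sinusoidal endothelial cells supply to hepatocytes. In Trad-KAPA its level was 27.2, 24.3 and 22.9 CPM in control mice 1, 2 and 3, and 44.6, 51.4 and 52.2 CPM in iron-loaded mice 1, 2 and 3. The 3’-LEXO libraries gave 52.4, 48.3 and 49.7 CPM on the control diet and 67.3, 66.0 and 58.3 CPM on the iron-loaded diet. Every iron-loaded library lay above every control library in both kits. The fold change in Trad-KAPA was 1.90 (log2 0.93 ± 0.12 SE, 95% interval 0.66 to 1.197, adjusted p = 0.00374, edgeR). It was 1.22 in 3’-LEXO (log2 0.29 ± 0.13, interval -0.01 to 0.59, adjusted p = 0.213), where Bmp2 did not pass the test. The call in Trad-KAPA held in each fit that left out 1 mouse. Beside this, the summed level of 10 sinusoidal endothelial markers overlapped between the diets in Trad-KAPA (483 to 638 CPM on control and 568 to 688 CPM on iron, with 2 markers called higher and 0 lower). In 3’-LEXO the same sum was lower in every iron-loaded library (378 to 407 CPM against 448 to 546 CPM, with 1 marker called higher and 2 lower). The part of the endothelial share in the level of Bmp2 was not tested.

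Of the 3 BMP receptor genes, the type II receptor Bmpr2 (ENSMUSG00000067336, chr1:59763400-59879014, plus strand) was the 1 that was called. In Trad-KAPA it was at 39.1, 37.9 and 41.2 CPM in control mice and at 55.9, 58.6 and 58.0 CPM in iron-loaded mice. With 3’-LEXO the values were 19.9, 21.5 and 20.1 CPM in control mice and 39.3, 26.3 and 22.9 CPM in iron-loaded mice. The groups did not overlap in either kit, and in 3’-LEXO iron-loaded mouse 1 lay well above the other iron-loaded mice. The fold change was 1.39 in Trad-KAPA (log2 0.48 ± 0.10 SE, adjusted p = 0.0197) and 1.38 in 3’-LEXO (log2 0.46 ± 0.19, adjusted p = 0.163). The call in Trad-KAPA was lost without control mouse 1 (adjusted p = 0.0677), control mouse 2 (0.0764), iron-loaded mouse 2 (0.0660) or iron-loaded mouse 3 (0.0624). Without iron-loaded mouse 1, the log2 fold change was 0.53 in Trad-KAPA (adjusted p = 0.00597) and 0.22 in 3’-LEXO (adjusted p = 0.386).

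The type I receptor genes were not called in either kit. Bmpr1a (ALK3; ENSMUSG00000021796, chr14:34410734-34503341, minus strand) had 39.1 ± 0.926 CPM on control and 42.7 ± 1.55 CPM on iron in Trad-KAPA (SD, n = 3), and 15.4 ± 3.32 and 12.7 ± 1.17 CPM in 3’-LEXO. Its log2 fold change was 0.05 (95% interval -0.16 to 0.27) and -0.33 (-0.73 to 0.07). Exons of Bmpr1a share 290 bp with the antisense gene Gm17110 on the opposite strand, and the sources used here do not say whether counting used strand. Acvr1 (ALK2; ENSMUSG00000026836, chr2:58388644-58567157, minus strand) had 16.1 ± 0.799 and 15.6 ± 1.33 CPM in Trad-KAPA and 20.9 ± 1.82 and 19.0 ± 1.33 CPM in 3’-LEXO. Its diets overlapped in both kits, with log2 fold changes of -0.11 (-0.36 to 0.13) and -0.19 (-0.52 to 0.13).

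**Figure D2:**
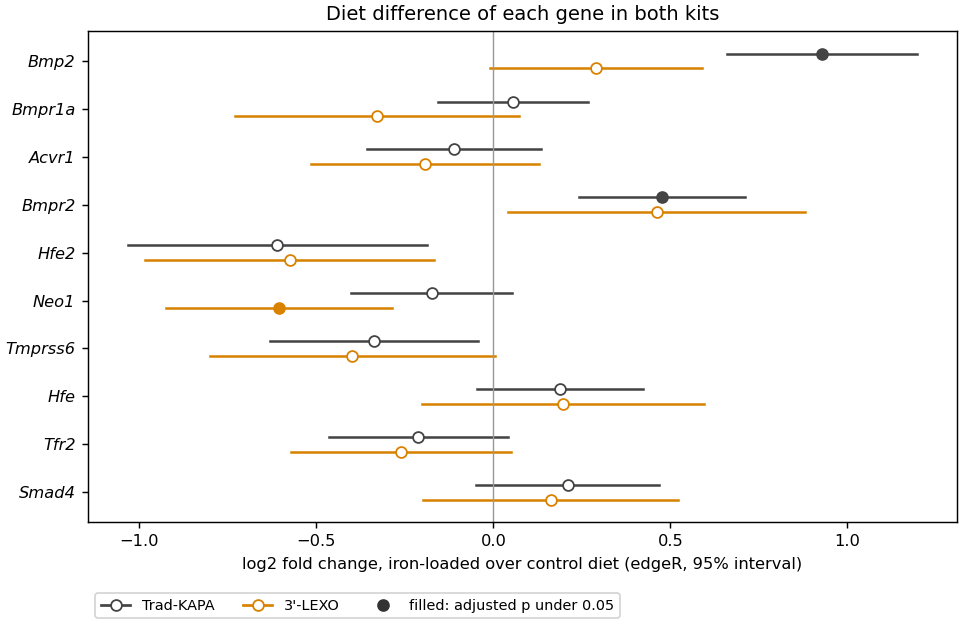
Log2 fold change of each gene, iron-loaded over control diet, with its 95% interval from edgeR; grey is Trad-KAPA, orange is 3’-LEXO, and filled points have an adjusted p under 0.05. Filled points are Bmp2 at 0.93 and Bmpr2 at 0.48 in Trad-KAPA and Neo1 at -0.61 in 3’-LEXO, and the intervals of the kits lie furthest apart for Bmp2 and Neo1.

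Hemojuvelin, encoded by Hfe2 (ENSMUSG00000038403, chr3:96525172-96529210, plus strand), binds BMP ligands at the hepatocyte membrane. In Trad-KAPA, Hfe2 was at 154, 110 and 176 CPM in control mice 1, 2 and 3 and at 94.9, 103 and 105 CPM in iron-loaded mice. The 3’-LEXO values of Hfe2 were 145, 105 and 144 CPM in control mice and 83.4, 103 and 90.7 CPM in iron-loaded mice. Iron-loaded mice were lower in both kits, and control mouse 2 was close to them in both. The fold change was 0.655 in Trad-KAPA (log2 -0.61 ± 0.18 SE) and 0.671 in 3’-LEXO (log2 -0.58 ± 0.18), and the adjusted p of 0.0543 and 0.0898 missed the threshold. DESeq2, run as an alternative, called Hfe2 lower in both kits, with an adjusted p of 0.0187 and 0.0496. Without control mouse 2, edgeR gave a log2 fold change of -0.79 in Trad-KAPA (adjusted p = 0.0294) and -0.73 in 3’-LEXO (adjusted p = 0.0644).

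Neo1 (neogenin; ENSMUSG00000032340, chr9:58874687-59036441, minus strand) encodes a membrane receptor that binds hemojuvelin. The 3’-LEXO libraries gave 44.7, 36.0 and 37.3 CPM in control mice and 27.5, 26.7 and 26.6 CPM in iron-loaded mice, which were close to each other and all below the controls. In Trad-KAPA it was at 27.5, 30.1 and 26.4 CPM and at 27.3, 26.4 and 24.3 CPM, and the groups overlapped. The fold change was 0.657 in 3’-LEXO (log2 -0.61 ± 0.14 SE, 95% interval -0.92 to -0.29, adjusted p = 0.0390) and 0.886 in Trad-KAPA (log2 -0.17 ± 0.10, interval -0.40 to 0.05, adjusted p = 0.248). The call in 3’-LEXO held without iron-loaded mouse 1 (adjusted p = 0.0424). It was lost without control mouse 1 (0.124), control mouse 2 (0.0622), control mouse 3 (0.115), iron-loaded mouse 2 (0.0678) or iron-loaded mouse 3 (0.106). It was also lost when libraries were scaled by their totals alone (0.0543). In 3’-LEXO the summed level of 9 stellate cell markers was also lower in every iron-loaded library (525 to 584 CPM against 616 to 624 CPM, with 0 of 9 called by edgeR, 4 at an unadjusted p under 0.05 and 1 by DESeq2), as was that of the endothelial markers given above. In Trad-KAPA the stellate sum overlapped between the diets (430 to 635 CPM on control and 519 to 530 CPM on iron). There 1 stellate marker was called higher and 1 lower. The part of these markers in the level of Neo1 was not tested.

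Tmprss6 (ENSMUSG00000016942, chr15:78439667-78468634, minus strand), whose protease removes hemojuvelin from the membrane, was lower in every iron-loaded library. In Trad-KAPA it was at 600, 624 and 625 CPM in control mice and at 460, 530 and 542 CPM in iron-loaded mice. With 3’-LEXO it was at 329, 271 and 315 CPM and at 199, 258 and 265 CPM. Iron-loaded mouse 1 had the lowest level in both kits, and it also had the lowest summed level of 7 hepatocyte markers. The fold change was 0.792 in Trad-KAPA (log2 -0.34 ± 0.13 SE, adjusted p = 0.104) and 0.759 in 3’-LEXO (log2 -0.40 ± 0.18, adjusted p = 0.203), so that Tmprss6 was not called in either kit. Hepatocyte markers summed to 141326 to 151964 CPM on control and to 110195, 147674 and 152166 CPM in iron-loaded mice 1, 2 and 3 of Trad-KAPA, with 1 marker of 7 called lower. The 3’-LEXO sums were 73402 to 85528 CPM and 49375, 82161 and 76696 CPM, again with 1 marker called lower. Their part in the levels of hepatocyte genes was not tested.

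The genes of the sensor complex were not called. Hfe (ENSMUSG00000006611, chr13:23702034-23710854, minus strand), which encodes an MHC class I-like protein, was at 34.7, 29.3 and 27.8 CPM in control mice and 38.9, 34.8 and 35.9 CPM in iron-loaded mice in Trad-KAPA. With 3’-LEXO the same mice were at 18.5, 17.7 and 11.98 CPM and at 19.1, 20.8 and 17.4 CPM. Iron-loaded mice were higher in Trad-KAPA and the groups overlapped in 3’-LEXO. The log2 fold change was 0.19 (95% interval -0.05 to 0.42, adjusted p = 0.229) and 0.20 (-0.20 to 0.59, adjusted p = 0.524). Tfr2 (ENSMUSG00000029716, chr5:137569840-137587481, plus strand) had a fold change under 1. It was at 482, 495 and 518 CPM in control mice and 469, 442 and 445 CPM in iron-loaded mice in Trad-KAPA. Its 3’-LEXO values were 199.8, 237 and 219 CPM and 199, 185 and 188 CPM. The groups did not overlap in either kit, but in 3’-LEXO the closest mice of the groups were almost equal. The log2 fold change of Tfr2 was -0.21 (-0.47 to 0.04, adjusted p = 0.210) and -0.26 (-0.57 to 0.05, adjusted p = 0.276).

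Smad4 (ENSMUSG00000024515, chromosome 18), the partner of the receptor-activated SMAD proteins, was at 42.05, 40.3 and 37.2 CPM in control mice and at 57.6, 44.4 and 43.4 CPM in iron-loaded mice in Trad-KAPA. The 3’-LEXO libraries held 44.6, 53.7 and 43.8 CPM and 67.9, 51.2 and 46.5 CPM. Iron-loaded mouse 1 was the highest of the 6 mice in both kits. Smad4 was not called, with a log2 fold change of 0.21 ± 0.11 SE in Trad-KAPA (adjusted p = 0.225) and 0.16 ± 0.16 in 3’-LEXO (adjusted p = 0.566). Without iron-loaded mouse 1 these were 0.11 and 0.01.

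The next question was whether the diet difference of a gene depended on the kit. It was tested over all 12 libraries as the log2 fold change in 3’-LEXO minus that in Trad-KAPA. With edgeR, 0 of 14384 genes were called (402 had an unadjusted p under 0.05), and DESeq2 also called 0 (390 under 0.05). The difference was -0.64 ± 0.17 SE for Bmp2 (95% interval -1.01 to -0.28, adjusted p = 1.00) and -0.43 ± 0.16 for Neo1 (-0.79 to -0.08, adjusted p = 1.00), the 2 of the 10 genes with an unadjusted p under 0.05. These fits did not use the fact that both kits share the RNA of each mouse. With the mouse added as a replicate block, edgeR called 5 of 14384 genes, and 1026 had an unadjusted p under 0.05. Of the 10 genes 0 were called there, and Bmp2 had an adjusted p of 0.159. In the edgeR fit without the block, Bmpr1a followed at -0.38 (-0.78 to 0.02). In the other 7 genes the difference lay between -0.08 and 0.03, and the intervals reached from -0.57 to 0.63. So the call of Bmp2 and Bmpr2 in Trad-KAPA and of Neo1 in 3’-LEXO does not show that the kits differed in these genes.

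The levels of the genes spanned a wide range. Divided by the length of the merged exons, Trad-KAPA gave 168 ± 19.2 CPM per kb for Tmprss6, 109.6 ± 6.79 for Tfr2 and 61.0 ± 16.3 for Hfe2 (SD over 6 mice of both diets). Their lowest library values lay above the highest of the other 7, which followed with 11.9 ± 1.91 CPM per kb for Smad4, 10.4 ± 3.88 for Bmp2, 9.40 ± 1.18 for Hfe, 6.44 ± 0.356 for Bmpr1a, 3.28 ± 0.209 for Acvr1, 3.10 ± 0.216 for Neo1 and 2.69 ± 0.557 for Bmpr2. On the control diet Bmp2 was 6th of the 10 at 6.98 ± 0.612 CPM per kb, below Hfe, and on the iron-loaded diet it was 4th at 13.9 ± 1.17, where its range overlapped that of Smad4. Acvr1 and Neo1 overlapped on both diets, and all other neighbours in the order of the control diet were separate. Bmpr2 was the lowest on the control diet at 2.19 ± 0.0927 CPM per kb and overlapped Acvr1 and Neo1 on the iron-loaded diet at 3.20 ± 0.0789. This order is that of Trad-KAPA. In 3’-LEXO, without division by length, Tmprss6, Tfr2 and Hfe2 also led on both diets. Bmp2 was 4th there on both diets (50.1 CPM on control and 63.9 CPM on iron), above Hfe (16.1 and 19.1 CPM). Bmpr1a was the lowest there on both diets.

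**Figure D3:**
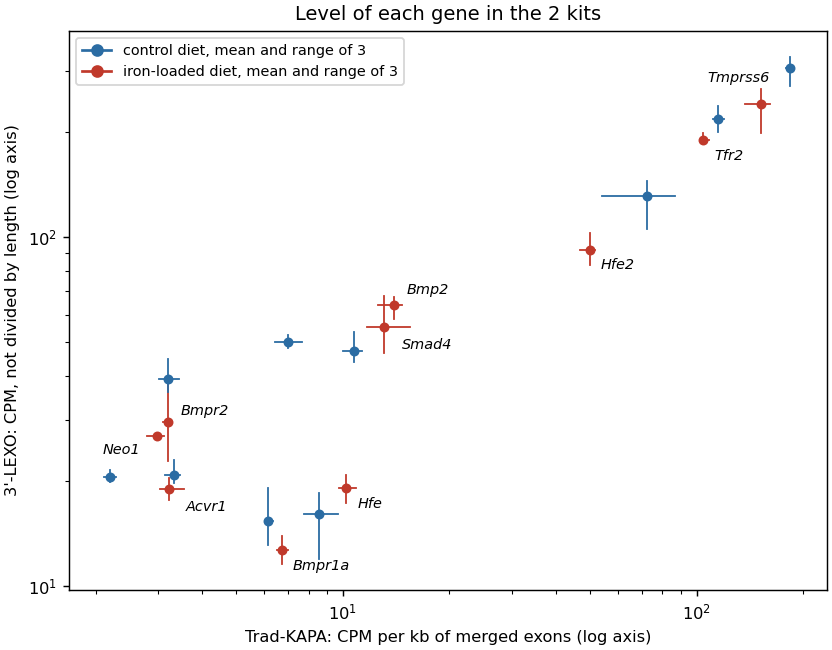
Mean level of each gene in Trad-KAPA (CPM per kb of merged exons, log x axis) and in 3’-LEXO (CPM without division by length, log y axis), with lines from the lowest to the highest of 3 mice; blue is the control diet and red the iron-loaded diet. Tmprss6, Tfr2 and Hfe2 lie at the upper right in both kits, and Bmp2 moves to the right on the iron-loaded diet from 6.98 to 13.9 CPM per kb.

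The share of the reads that a gene took differed between the kits for most genes: 8 of the 10 were called between 3’-LEXO and Trad-KAPA, where 76.5% of 14384 genes were called (38.8% higher and 37.6% lower in 3’-LEXO). Lower in 3’-LEXO were Bmpr1a (log2 -1.55 ± 0.09 SE, 40.9 CPM with Trad-KAPA against 14.03 CPM), Tfr2 (-1.21 ± 0.08), Tmprss6 (-1.04 ± 0.11), Bmpr2 (-0.95 ± 0.11) and Hfe (-0.93 ± 0.10). Higher in 3’-LEXO were Bmp2 (0.70 ± 0.08, 37.1 and 57.0 CPM), Acvr1 (0.33 ± 0.08) and Neo1 (0.28 ± 0.08). The adjusted p of these 8 lay between 3.42e-09 and 0.00734. Each held its direction in 6 of 6 mice, as did the other 2 genes, Smad4 (higher in 3’-LEXO) and Hfe2 (lower). Smad4 (log2 0.22, adjusted p = 0.0509) and Hfe2 (-0.14, adjusted p = 0.381) were not called, and with the mouse as a replicate block both were (adjusted p = 0.00387 and 0.0421). The call of Neo1 was lost without control mouse 1 (adjusted p = 0.103) and without iron-loaded mouse 3 (0.0513).

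Since 3’-LEXO starts from the poly(A) tail, the last 30 bases of the longest coding transcript (GENCODE M21, GRCm38, 5′ to 3′ on the strand of the gene) are shown for the 2 genes with the largest difference in each direction. Capitals mark the poly(A) signals AATAAA or ATTAAA, which overlap in Acvr1.
Bmpr1a: gcaAATAAActgctccattttattgccaga
Tfr2: aaccaattgtaacccctgttgtccatacgc
Bmp2: aattctggcatttcatcctataaaacctaa
Acvr1: tgtataaATTAAATAAActgttttcaagtc
They lie at chr14:34410734-34410763 (minus strand), chr5:137587450-137587479 (plus), chr2:133562856-133562885 (plus) and chr2:58446441-58446470 (minus). Bmpr1a, which was lower in 3’-LEXO, and Acvr1, which was higher, hold a signal, and Tfr2, which was lower, and Bmp2, which was higher, hold neither in this window. Searched on this strand of 16478 coding genes, AATAAA was in 54.9% of such windows, ATTAAA in 14.9% and either of them in 68.0%. The annotation gives 1 coding 3′ end for Bmp2, 4 each for Bmpr1a and Acvr1 and 5 for Tfr2.

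To see which genes varied most like the called ones, log2(CPM + 0.5) was centred on its mean within each kit and compared over the 12 libraries of 6 mice among 8624 genes. These correlations are descriptive, since each mouse enters with both of its libraries and the diets differ. Bmp2 was most like Ptprm (r = 0.987), Hipk3 (0.981) and Rc3h1 (0.978). Bmpr2 was most like Dek (0.961), Tpmt (0.958) and Ppil4 (0.951). Neo1 was most like Npr1 (0.957), Hnrnpul2 (0.946) and Gid4 (0.918).

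A further 59 genes of the hepcidin pathway were listed by role. They were chosen with earlier results of these data known, so their share of calls is no independent test against that of all genes. In Trad-KAPA 51 of them passed the filter on low counts, of which 12 were called higher and 4 lower on the iron-loaded diet (31.4%, beside 17.1% of all genes). In 3’-LEXO 51 passed, of which 6 were called higher and 1 lower (13.7%, beside 6.1%). Leaving out 1 mouse, the number called in Trad-KAPA was 16 without control mouse 1, 6 without control mouse 2, 8 without control mouse 3, 18 without iron-loaded mouse 1 and 9 without iron-loaded mouse 2 or 3. In 3’-LEXO it was 6, 3, 2, 9, 3 and 2 in the same order. Of the 16 calls in Trad-KAPA, 5 held in each of these fits (Smad9, Bmp6, Skil, Id4 and Atoh8), and of the 7 in 3’-LEXO 2 did (Smad9 and Id4). Of the receptors and partners other than the 10, edgeR called 0 of 7 genes with Trad-KAPA and 0 of 8 with 3’-LEXO. At an unadjusted p under 0.05 there were 2 and 0, and DESeq2 called 1 and 0. The most abundant of them, B2m, whose product binds HFE, had a log2 fold change of -0.35 (adjusted p = 0.0791) and -0.36 (0.202). Eng, an endothelial co-receptor, had 0.18 (0.346) and -0.19 (0.454).

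Among the ligands, 1 of 8 was called higher and 2 lower in Trad-KAPA, and 0 of 7 in 3’-LEXO by edgeR (1 at an unadjusted p under 0.05, 0 by DESeq2). These 3 were named after their values were seen. Bmp6, the ligand best known to follow liver iron, was at 3.37 ± 0.488 CPM on control and 19.0 ± 2.64 CPM on iron in Trad-KAPA (log2 2.42 ± 0.17 SE, adjusted p = 0.000505). In 3’-LEXO it had 0 to 4 counts in a library, did not pass the filter on low counts and was not tested. Bmp4 (log2 -1.12, adjusted p = 0.0177) and Bmp7 (-1.31, adjusted p = 0.0302) were lower in Trad-KAPA, with -0.97 (0.116) and -0.79 (0.275) in 3’-LEXO. Both were at low levels. In Trad-KAPA, Bmp4 was at 3.92 CPM on control and 1.88 CPM on iron. Bmp7 was at 1.62 and 0.68 CPM there, with at most 28 counts in a library. These calls held in 5 (Bmp4) and 1 (Bmp7) of the 6 fits that left out 1 mouse. Of the BMP ligands described here, Bmp2 and Bmp6 were called higher in Trad-KAPA.

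Of 13 genes of the SMAD relay and its brakes, 6 were called higher in Trad-KAPA and 3 with 3’-LEXO. With edgeR 0 were called lower, with 0 also at an unadjusted p under 0.05 and by DESeq2. Called in both kits were Smad9, a receptor-activated SMAD (log2 4.13 ± 0.22 SE in Trad-KAPA, adjusted p = 0.00026, and 4.23 ± 0.28 in 3’-LEXO, adjusted p = 0.000179), Smad7, which inhibits the BMP receptors (1.88 and 1.58), and Skil, which represses SMAD transcription (1.34 and 0.88). Smad9 rose from 2.37 to 44.3 CPM in Trad-KAPA and from 0.67 to 13.1 CPM in 3’-LEXO, so that the size of its fold rests on low control levels. Called in Trad-KAPA and not in 3’-LEXO, and named after their values were seen, were Smad1 (0.46), Smad6 (0.52) and Smurf1 (0.42). In 3’-LEXO they had 0.36 (adjusted p = 0.139), 0.46 (0.100) and 0.24 (0.467). The calls in Trad-KAPA held in 2, 2 and 1 of the 6 fits that left out 1 mouse. BMP receptors phosphorylate SMAD1, and SMAD6 and SMURF1 restrain this step.

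Of 9 BMP-SMAD target genes, which include Smad6 and Smad7, 6 were called higher and 1 lower in Trad-KAPA and 4 higher and 1 lower in 3’-LEXO. Id4 (log2 2.23 and 1.96) and Atoh8 (1.73 and 1.67), which encode transcription regulators, were higher in both kits. Hamp itself was at 214 ± 261 CPM on control and 1141 ± 162 CPM on iron in Trad-KAPA (log2 2.36 ± 0.77 SE, adjusted p = 0.0667) and was called in 3’-LEXO (2.53 ± 0.62, adjusted p = 0.0425). Control mouse 1 was at 515 CPM in Trad-KAPA, against 44.0 and 83.2 CPM in control mice 2 and 3, and at 528 CPM with 3’-LEXO, against 81.0 and 98.3 CPM. Without control mouse 1, the log2 fold change of Hamp was 4.06 (adjusted p = 0.00381) and 3.90 (adjusted p = 0.000708). The call of Hamp in 3’-LEXO held in 2 of the 6 fits that left out 1 mouse. It was lost without control mouse 2 or 3 and without iron-loaded mouse 2 or 3 (adjusted p up to 0.133). Hamp2, the second mouse hepcidin gene, was lower in both (-1.81, adjusted p = 0.0148, and -1.59, adjusted p = 0.0268). Hamp and Hamp2 are similar copies. Only uniquely mapped reads were counted, so a read that fits both copies equally was counted for neither. How much of each gene this left to be counted was not tested. Id1 (1.73) and Id2 (0.50) were called in Trad-KAPA and not in 3’-LEXO, where they had 1.65 (adjusted p = 0.0531) and 0.39 (0.203). Both were named after their values were seen.

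The remaining lists held at most 1 call in a kit. Of 3 proteases and inhibitors that passed the filter, Furin, which cuts pro-proteins such as hemojuvelin, was called higher in Trad-KAPA (log2 0.47, adjusted p = 0.0412) and had 0.45 (0.351) in 3’-LEXO. Of 6 extracellular BMP antagonists edgeR called 0 in either kit (2 in each had an unadjusted p under 0.05, and DESeq2 called 1 and 0), where the most abundant, Twsg1, had log2 fold changes of 0.04 and -0.08. Of 7 genes of the IL-6 route, which raises Hamp in inflammation, Tyk2 was called lower in Trad-KAPA (-0.62, adjusted p = 0.0130) and had -0.51 (0.0910) in 3’-LEXO. Furin and Tyk2 were named after their values were seen. Beside these counts, the summed level of 10 Kupffer cell markers was higher in every iron-loaded library of Trad-KAPA (867 to 948 CPM against 498 to 778 CPM) and overlapped in 3’-LEXO (1486 to 1722 against 1127 to 1508 CPM), and its part in them was not tested. Cholangiocyte markers summed higher in every iron-loaded library of both kits (33.5 to 39.0 against 23.6 to 26.5 CPM, and 43.3 to 44.2 against 30.0 to 37.4 CPM). The single markers did not all go this way. In each kit 3 were tested, of which edgeR called 1 higher and 0 lower. At an unadjusted p under 0.05, 1 was higher and 1 lower in each kit. Red cell markers summed to 20.1 to 151 CPM on control and 16.4 to 28.8 CPM on iron in Trad-KAPA, and to 162 to 1214 CPM and 119 to 208 CPM with 3’-LEXO. These sums overlapped between the diets in both kits. All 4 red cell markers tested were lower at an unadjusted p under 0.05 in both kits (median log2 -1.86 and -1.90). Over all genes, 34.3% and 25.0% were under 0.05 in either direction. Of the 4 markers edgeR called 0 (DESeq2 0 and 1). Lymphocyte markers reached at most 32.1 CPM and overlapped between the diets.

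**Figure D4:**
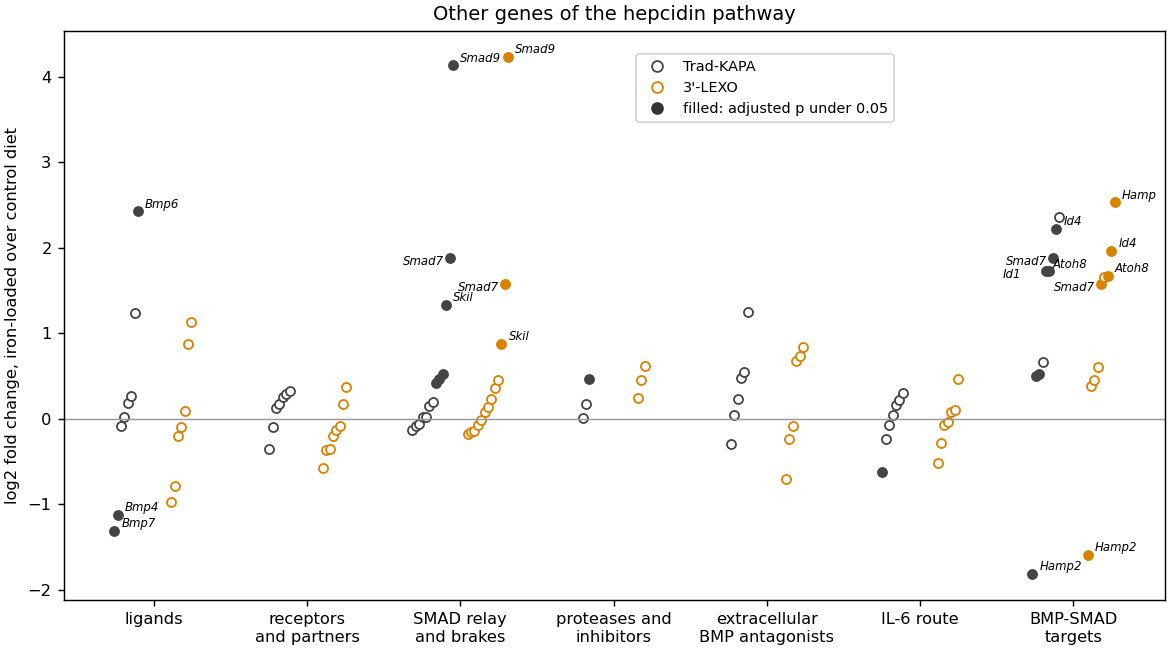
Log2 fold change, iron-loaded over control diet, of each pathway gene other than the 10 that passed the filter, by list and kit (grey Trad-KAPA, orange 3’-LEXO); filled points have an adjusted p under 0.05, and names mark filled points beyond 0.8 in size. Smad9 reaches 4.13 and 4.23, Hamp2 is the lowest at -1.81 and -1.59, and no point of the receptors and partners is filled.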

How the data were processed

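Livers of 6 mice were sequenced with both kits, 12 libraries in 4 groups of 3. Per the paper's methods and the labels, the authors mapped reads with STAR 2.5.3a to GRCm38 (mm10) and deposited raw counts of reads mapped uniquely to exons of each gene. The counting program and its strand setting are not given in the sources used here. The deposited count values were whole numbers and were neither normalized nor subsampled. The table gives Ensembl identifiers, and symbols and lengths came from GENCODE M21, which held 26949 of 27022. The 10 genes, the other lists and the markers were chosen with earlier results of these data known.

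Diet was tested within each kit with edgeR 4.0.16 (R 4.3.3, quasi-likelihood test, filterByExpr, TMM, Benjamini-Hochberg at 0.05), and kit and diet by kit over all 12 libraries with 4 group means. Adjusted p refers to this test unless DESeq2 1.42.0 is named. The scripts were tested on simulated data. CPM values are scaled by library totals, so that their ratios differ slightly from the fitted folds: scaled by totals alone, the median log2 fold change of all genes was 0.09 (Trad-KAPA) and 0.07 (3’-LEXO). P-values measure the spread between 3 mice of 1 cage per diet. The labels number the libraries of each group and name no mouse. A number was taken as 1 mouse across the kits, as the paper pairs sample 1 of the kits (r of deviations from group means 0.435 to 0.765). It was not taken as a pair across diets (-0.163 to 0.096). Genes named were all 10, pathway genes called in both kits, the 2 most abundant of lists with 0 calls, and, outside this rule, those called in 1 kit. An item that this rule names is not reported here. Alternatives were DESeq2, its size factors, totals alone, no filter or a mean of 1 CPM, libraries drawn down to 10000000 counts, a replicate block, longest transcripts, a pseudocount of 2 CPM and leaving out each mouse. Intervals and counting errors cover these libraries only.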

Additional observations from a re-analysis of the deposited data

How the results depend on the processing

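Across all alternatives Bmp2 in Trad-KAPA stayed called. The number of the 10 genes called was 2 in Trad-KAPA (1 to 2 when 1 mouse was left out, and 3 with DESeq2, with no filter and at 10000000 counts per library, Hfe2 being added) and 1 in 3’-LEXO (0 to 1 when 1 mouse was left out). In 3’-LEXO it was 2 with DESeq2 and 2 with no filter, Hfe2 being added to Neo1, and 0 with library totals only and 0 with the replicate block (Neo1, adjusted p = 0.0907). Within a kit the block uses replicate numbers that name no pairs across diets, and it changed no call of the 10 in Trad-KAPA. Across all genes it gave 436 calls in place of 811 in 3’-LEXO. In the fits over both kits the replicate block is the mouse, and the interaction had 5 calls in place of 0. With no filter, 2040 genes were called in 3’-LEXO and 7 for the interaction, and DESeq2 called 1313 in 3’-LEXO. Leaving out 1 mouse gave 841 to 2803 calls in Trad-KAPA and 199 to 871 in 3’-LEXO. The count between kits ranged from 7 to 9 when 1 mouse was left out, was 6 with no filter and 10 with the mouse as replicate block. The 59 other pathway genes had 6 to 18 calls in Trad-KAPA and 2 to 9 in 3’-LEXO when 1 mouse was left out. No setting reversed a called value. Small values that changed sign were these. Acvr1 in Trad-KAPA was 0.00067 on the log2 scale at 10000000 counts per library. The diet by kit difference of Hfe was -0.0082 with library totals only and -0.0054 with no filter, and that of Bmpr2 was 0.0094 with DESeq2, 0.0089 with its size factors and 0.0080 with a mean of 1 CPM. When 1 mouse was left out, that difference ranged from -0.11 to 0.11 for Hfe, -0.077 to 0.019 for Tfr2, -0.050 to 0.11 for Hfe2, -0.14 to 0.044 for Tmprss6, -0.17 to 0.062 for Acvr1, -0.26 to 0.14 for Bmpr2 and -0.10 to 0.037 for Smad4. The diet difference of Twsg1 then lay between -0.020 and 0.15 (Trad-KAPA) or -0.22 and 0.074 (3’-LEXO). The longest transcript in place of merged exons exchanged only Neo1 and Bmpr2 in the order of levels over both diets. With a pseudocount of 2 CPM, 3, 2 and 2 of the 3 genes most like Bmp2, Bmpr2 and Neo1 were the same. The causes of these changes were not tested.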
